A study of Homo sapiens with 8 samples.

Results

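HPAF-II, an established human cell line of pancreatic ductal adenocarcinoma (PDA), was set against the PDA lines Panc.8, Panc.05.04 and Panc.10.05 in the same RNA-seq series. The comparison describes HPAF-II as a line, and not what the siRNA did. A gene counted as higher or lower in HPAF-II when both HPAF-II libraries lay outside the range of all 6 libraries of the other lines on log2(FPKM + 1), where FPKM is the number of fragments scaled by transcript length and by the mapped fragments of the library. Of 19350 rows above 0 FPKM in at least 1 of the 8 libraries, 3088 were higher and 2986 were lower in HPAF-II.

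The 2 HPAF-II libraries came from cells that received PDX1 siRNA or control siRNA, and each of the other 3 lines had the same pair, with cells collected 3 days after transfection. All cells compared here were transfected. The labels call them PDA tumor cells and give no passage or genotype. Each line is thus 1 source of cells, and its 2 libraries are not replicates of each other. The authors deposited 1 table per line, and the tables may have been scaled separately, which limits every level set across lines. No test was made: with 1 line against 3, an exact permutation over lines could not give a p below 0.25. Levels and gaps are given as a description. Where 2 values are given for a line, the first is from the PDX1 siRNA library and the second from the control siRNA library.

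PDA lines and tumours are commonly sorted into a classical type, with genes of the glandular gut lining such as mucins, trefoil factors and CEACAM proteins, and a basal-like type, with squamous keratins. The absorptive cells of the intestine carry a brush border of microvilli, built on actin bundled by villin and tied together by protocadherins. In that tissue CDX2 and HNF4A are transcription factors of the differentiated epithelium. PDX1, the target of the siRNA, is a homeobox factor of the developing pancreas and duodenum.

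Promoters are shown for 4 of the widest-gap genes. Each was near 0 FPKM in the other lines and above 100 FPKM in HPAF-II. The 4 genes are TM4SF4, a tetraspan membrane protein, RNF128, a ubiquitin ligase, LGALS4, the lectin galectin-4, and CITED1, a transcriptional co-regulator. Not every gene with such levels is shown, and CDH17, a cadherin with such levels, was left out. The windows run from 250 bases before to 50 bases after the annotated start (RefSeq, GRCh38.p14), 5′ to 3′ on the gene's strand. Capitals mark matches on either strand to letters from motifs of gut transcription factor families. They are CAAAGTCCA for HNF4, TTTATNG for the caudal (CDX) factors and TGTTTAC for the forkhead (FOXA) factors. The zinc finger GATA factors are represented by the letters AGATAA. The core shared by many homeobox factors is TAATTA.
TM4SF4 (chr3:149474447-149474746, + strand): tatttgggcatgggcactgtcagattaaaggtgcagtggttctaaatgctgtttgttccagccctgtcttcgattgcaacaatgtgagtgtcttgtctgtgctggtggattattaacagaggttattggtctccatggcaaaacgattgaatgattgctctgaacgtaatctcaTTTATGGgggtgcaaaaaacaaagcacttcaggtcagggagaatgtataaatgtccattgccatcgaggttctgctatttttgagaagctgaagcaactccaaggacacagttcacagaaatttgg
RNF128 (chrX:106693588-106693887, + strand): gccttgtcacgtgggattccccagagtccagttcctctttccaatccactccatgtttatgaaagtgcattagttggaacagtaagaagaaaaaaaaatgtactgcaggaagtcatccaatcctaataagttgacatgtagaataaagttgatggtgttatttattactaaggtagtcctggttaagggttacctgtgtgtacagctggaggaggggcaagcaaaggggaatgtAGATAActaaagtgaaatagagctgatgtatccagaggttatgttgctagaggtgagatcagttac
LGALS4 (chr19:38812896-38813195, - strand): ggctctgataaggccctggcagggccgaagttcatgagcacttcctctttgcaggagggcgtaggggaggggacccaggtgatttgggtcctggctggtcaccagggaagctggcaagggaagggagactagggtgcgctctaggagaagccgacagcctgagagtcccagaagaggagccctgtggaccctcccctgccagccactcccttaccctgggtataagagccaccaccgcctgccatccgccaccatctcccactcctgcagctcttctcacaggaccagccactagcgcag
CITED1 (chrX:72307108-72307407, - strand): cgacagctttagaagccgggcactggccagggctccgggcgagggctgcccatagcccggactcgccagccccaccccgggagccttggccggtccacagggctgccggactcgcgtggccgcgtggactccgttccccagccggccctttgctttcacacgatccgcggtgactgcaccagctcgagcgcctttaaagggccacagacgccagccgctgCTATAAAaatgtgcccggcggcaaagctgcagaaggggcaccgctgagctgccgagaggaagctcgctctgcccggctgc
The TM4SF4 window held 1 CDX match, the RNF128 window 1 GATA match and the CITED1 window 1 CDX match, and the LGALS4 window held none of these letters. A match describes the letters and is not a bound site.

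Summed over rows, the 8 libraries held 371329 to 428778 FPKM. Depth is unknown, since the files hold no counts, so no counting interval is given. Across the 12106 rows with a mean of at least 1 FPKM, the HPAF-II pair had a Pearson r of 0.992 across genes, which are not independent replicates. HPAF-II had r between 0.780 and 0.792 with Panc.10.05, between 0.750 and 0.756 with Panc.8 and between 0.670 and 0.679 with Panc.05.04. All 6 epithelial markers reached 1 FPKM in both HPAF-II libraries, with sums of 3618 and 3988 FPKM, against 732.9 to 5192 FPKM in the other lines. Of 5 matched ductal markers, KRT7, SOX9, MUC1 and CA2 reached 1 FPKM, while CFTR was at 0.0576 and 0.0491 FPKM in HPAF-II. The matched acinar, islet, endothelial and hepatocyte markers were each at 0.12 FPKM or less in HPAF-II, with none of the 4 matched islet markers above 0. SERPINA1, a hepatocyte marker left out because its row was marked FAIL, had deposited values of 11.3 and 13.3 FPKM in HPAF-II. Of the fibroblast and leukocyte markers, COL1A1 (1.50 and 1.37 FPKM) and CD14 (7.53 and 8.86 FPKM) were above 1 FPKM in HPAF-II. Of 6 enterocyte markers, 5 reached 1 FPKM in both HPAF-II libraries, with sums of 589.5 and 660.3 FPKM, against 0.249 to 4.25 FPKM in the other lines. In RNA from a whole culture, fewer cells with a transcript and less of it per cell cannot be told apart.

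The number of rows outside the range of the other libraries was not peculiar to HPAF-II. For HPAF-II, 16.0% were higher and 15.4% lower. Set against their own 3 other lines in the same way, 16.6% were higher and 10.5% lower in Panc.8, 15.9% and 15.9% in Panc.05.04, and 12.8% and 9.36% in Panc.10.05. Many HPAF-II members lay just outside the range, with a gap under 0.1 on the log2 scale for 616 of the higher and 791 of the lower rows. The gap is the distance between the lowest value of the higher side and the highest value of the lower side.

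A gap of at least 1 on log2(FPKM + 1) left 603 rows higher and 260 lower in HPAF-II, 3.12% and 1.34% of the rows. The same shares were 2.48% and 0.868% in Panc.8, 2.78% and 2.60% in Panc.05.04, and 0.941% and 0.630% in Panc.10.05. Of the 603 higher rows in HPAF-II, 548 were protein-coding and 32 were long noncoding RNAs, and 200 had less than 1 FPKM in all 6 other libraries. Of the 260 lower rows, 252 were protein-coding, and 119 had less than 1 FPKM in both HPAF-II libraries. Gaps of at least 2 were found for 211 higher and 53 lower rows, and gaps of at least 4 for 45 higher and 5 lower rows.

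At the edge of the gap of 1, ZBTB20 lay just inside on the higher side with 4.77 and 3.90 FPKM in HPAF-II, against at most 1.45 FPKM in the other lines, and TADA3 just outside with 61.2 and 63.0 FPKM, against at most 30.1 FPKM. On the lower side, CD3EAP lay just inside with 2.87 and 2.21 FPKM in HPAF-II, against at least 6.74 FPKM, and TICRR just outside with 1.48 and 1.60 FPKM, against at least 4.19 FPKM.

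**Figure D1:**
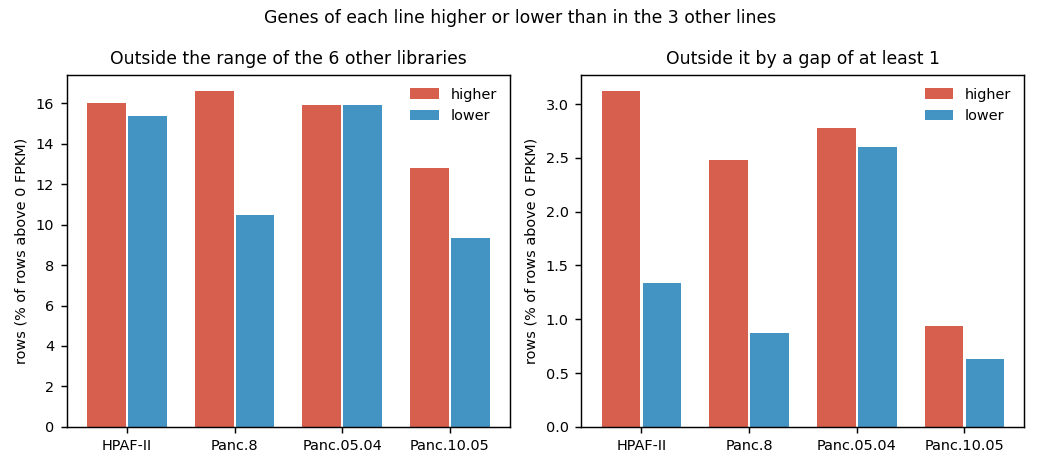
Percentage of the 19350 rows above 0 FPKM that were higher (red) or lower (blue) in both libraries of a line than in all 6 libraries of the other 3 lines, without a minimum gap (left) and with a gap of at least 1 on log2(FPKM + 1) (right). HPAF-II had 16.0% higher and 15.4% lower rows, and 3.12% and 1.34% with the gap.

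Most genes of an enterocyte and brush border list were higher in HPAF-II than in the other lines. Of the 29 that were above 0 FPKM in some library, 24 were higher in HPAF-II and 0 lower (82.8% and 0%, against 16.0% and 15.4% of all rows), 19 of them by a gap of at least 1. The other 5 met neither side, and 23 of the 29 reached 1 FPKM in a library. Their median difference (HPAF-II minus the mean of the other lines) was 2.80 on the log2 scale, against -0.02 over all rows tested. In Panc.8, Panc.05.04 and Panc.10.05, 1, 1 and 0 of these genes were higher than in all other lines. This list and those below were chosen with earlier results of these data known, so their shares are a description and not a test. The shares of each list below are to be read beside the 16.0% and 15.4% of all rows.

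CDH17, liver-intestine cadherin, had the widest gap of all named genes, 8.05 on the log2 scale. CDH17 was at 309.9 and 344 FPKM in HPAF-II, against a median of 0 and a highest of 0.176 FPKM in the other lines. LGALS4, a lectin of the gut lining, was at 123 and 132 FPKM in HPAF-II, against 0, 0.187 and 0.331 FPKM as the lowest, median and highest of the other lines. VIL1, the villin that bundles microvillar actin, was at 68.2 and 81.2 FPKM in HPAF-II and at most 0.347 FPKM in the others. None of the 6 other libraries came near HPAF-II for these genes.

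The proteins that tie microvilli together were on the same side. CDHR2, a protocadherin of the links between microvilli, was at 27.5 and 29.2 FPKM in HPAF-II, against at most 0.0520 FPKM elsewhere. USH1C, the scaffold harmonin that anchors those links, was at 29.4 and 32.9 FPKM in HPAF-II, against at most 0.220 FPKM. The peptidase DPP4 was at 111 and 119 FPKM in HPAF-II, against at most 3.26 FPKM. Digestive and uptake genes were uneven. SI (sucrase-isomaltase) was at 5.14 and 6.89 FPKM in HPAF-II and listed at 0 in all 6 others, while FABP1, the fatty acid binding protein of liver and gut, was at 0 and 0.145 FPKM in HPAF-II and LCT (lactase) was listed at 0 in both. The 5 members that met neither side of the rule were FABP1, LCT, ANPEP, SLC5A1 and SLC2A5. Of those counted as higher, SLC2A2 was at only 0.0351 and 0.0215 FPKM in HPAF-II.

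Among the widest-gap higher genes were 3 members of a family of tetraspan membrane proteins. TM4SF4 was at 159.9 and 207 FPKM in HPAF-II, TM4SF20 at 43.2 and 47.1 FPKM and TM4SF5 at 40.5 and 44.6 FPKM. None of the 3 exceeded 0.270 FPKM in any other library. RNF128 was at 138 and 137 FPKM in HPAF-II, against at most 0.407 FPKM, and CITED1 at 112 and 138 FPKM, against at most 0.558 FPKM. TSPAN8, a tetraspanin of gut and pancreatic tumours, was at 404 and 450.4 FPKM in HPAF-II, against a median of 0 and a highest of 4.92 FPKM. In the other lines TSPAN8 was above 0 in Panc.8 alone. HEPH, the ferroxidase of intestinal iron export, was at 43.0 and 52.6 FPKM in HPAF-II, against at most 0.0884 FPKM.

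Over the 413 promoters of higher genes with a gap of at least 1 that were in the RefSeq table, the HNF4 letters were in 3 windows (0.726%), against 0 of the 196 windows of lower genes and 0.359% of all 27305 promoters. The CDX letters were in 8.23% of windows of higher genes, 6.12% of lower genes and 10.1% of all. For the GATA letters the shares were 9.93%, 2.55% and 10.5%, for FOXA 3.15%, 2.55% and 3.41%, and for the homeobox core 2.91%, 2.04% and 4.98%. Apart from the HNF4 letters, with their 3 windows, the share in higher genes was below that of all promoters.

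Of 32 endoderm and gut transcription factors above 0 FPKM, 14 were higher and 2 lower (43.8% and 6.25%), and 16 met neither side. HNF4A, a nuclear receptor of liver and intestine, was at 28.6 and 32.3 FPKM in HPAF-II, against 0, 0.0164 and 0.253 FPKM as the lowest, median and highest elsewhere. FOXA3, a forkhead factor of liver and gut, was at 32.6 and 32.3 FPKM in HPAF-II and at most 0.730 FPKM in the others. The cut-homeobox factor ONECUT3 was at 19.5 and 23.8 FPKM in HPAF-II and at most 0.124 FPKM in the others.

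CDX2, the caudal homeobox factor of the intestine, was at 83.7 and 96.3 FPKM in HPAF-II, against a median of 0.336 and a highest of 4.01 FPKM. The nuclear receptor NR5A2 was at 14.0 and 12.4 FPKM in HPAF-II, against at most 0.284 FPKM elsewhere, and the intestinal homeobox factor ISX at 4.12 and 5.10 FPKM, against at most 0.0182 FPKM. Not every factor of the lineage was on that side. FOXA2 was at 15.7 and 15.0 FPKM in HPAF-II, overlapping the range of the others (0.0615 to 15.2 FPKM). GATA6 was at 12.8 and 12.2 FPKM in HPAF-II, below the 29.9 and 29.7 FPKM of Panc.8. GATA4 was listed at 0 in both HPAF-II libraries, and HHEX, a homeobox factor of the early foregut, was at 1.03 and 1.14 FPKM in HPAF-II, against at least 3.36 FPKM.

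PDX1 was higher in HPAF-II, at 5.37 and 9.61 FPKM, against 0.0998, 0.394 and 1.41 FPKM as the lowest, median and highest elsewhere, with a gap of 1.40. Its row spans chr13:27829759-27926314 (hg38) and overlaps another row. Whether strand was used in counting is not given in the sources used here. Reads of overlapping rows therefore cannot be told apart for PDX1 nor for HNF4A, EPCAM, OVOL1, SMAD1, RNF43, FZD4, LEF1, CDKN2A, CDKN2B, ALDH2, FADS1, FADS2, SCD5, ACSL1, VIM, WWTR1, HOXB3, HOXB6, HOXC10, HOXC11, FOXM1, MMP1, PCID2, ANTXR1, HYI, LPCAT2, ZBTB20, CD3EAP and TICRR.

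**Figure D2:**
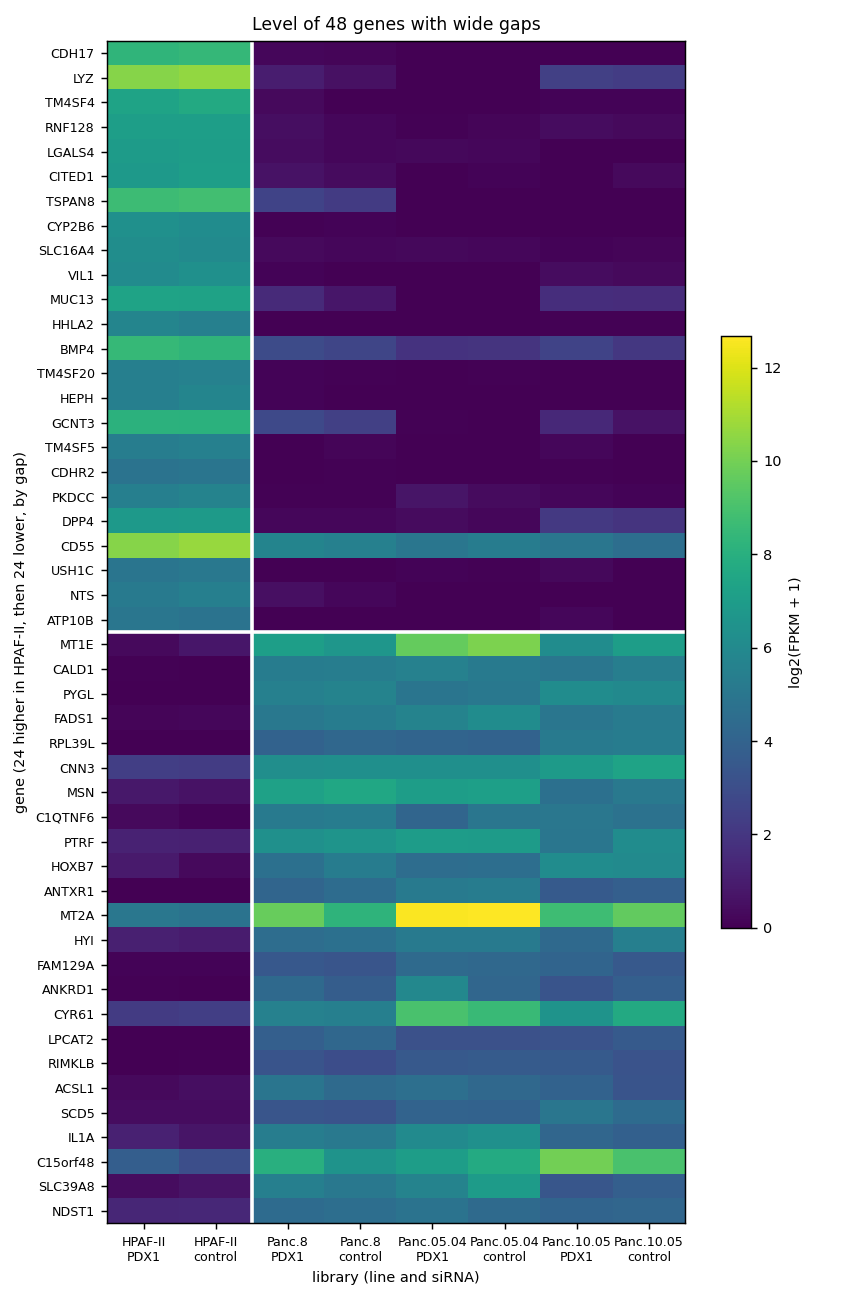
Level as log2(FPKM + 1) (colour) of 24 of the 25 protein-coding genes with the widest gap on the higher side and 24 of the 25 on the lower side (rows, by gap) in the 8 libraries (columns, HPAF-II at the left). The upper block starts with CDH17 (gap 8.05) and the lower block with MT1E (gap 5.42).

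Of 32 genes of the classical PDA type above 0 FPKM, 17 were higher and 0 lower (53.1% and 0%) in HPAF-II, with a median difference of 2.63. In Panc.8, 11 of these genes were higher and 1 lower than in its own 3 other lines. LYZ, the antibacterial enzyme lysozyme, was at 1328 and 1591 FPKM in HPAF-II, against 0, 0.746 and 4.36 FPKM as the lowest, median and highest elsewhere. ATP10B, of the phospholipid flippase family, was at 29.9 and 27.7 FPKM in HPAF-II and at most 0.167 FPKM elsewhere. CEACAM5, an adhesion molecule of colon and classical tumours, was at 467 and 487 FPKM in HPAF-II and CEACAM6 at 1096 and 1115 FPKM. Panc.8 was the next line, at 217 and 146 FPKM for CEACAM5 and 689.5 and 627 FPKM for CEACAM6, and the CEACAM genes are alike enough to share reads.

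The trefoil genes TFF1, TFF2 and TFF3, the stomach protease gene CTSE and the claudin gene CLDN18 met neither side of the rule. TFF2 was at 7.42 and 5.14 FPKM in HPAF-II, beside 7.06 and 6.17 FPKM in Panc.8. CTSE and CLDN18 were listed at 0 in both HPAF-II libraries, and their highest values elsewhere were 12.7 FPKM and 1.29 FPKM.

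Mucin genes were mixed. Of 30 mucin and secreted gastrointestinal genes above 0 FPKM, 10 were higher and 1 lower (33.3% and 3.33%). The membrane mucin MUC13 was at 159 and 158 FPKM in HPAF-II, against at most 2.13 FPKM elsewhere, and MUC17 at 7.81 and 5.95 FPKM, against at most 0.00954 FPKM. MUC1, the common ductal membrane mucin, was the lower one, at 67.0 and 64.5 FPKM in HPAF-II and 81.3 to 413 FPKM in the others. GCNT3, which adds branches to mucin sugars, was at 282 and 274 FPKM in HPAF-II, against at most 5.83 FPKM, and the galactosyltransferase B3GALT5 at 14.7 and 15.3 FPKM, against at most 1.23 FPKM. ST6GAL1, a sialyltransferase, was at 0 and 0 FPKM in HPAF-II and 1.51 to 10.9 FPKM in the others. Among the 31 sugar-transferring enzymes above 0 FPKM, 7 were higher and 4 lower (22.6% and 12.9%), against 16.0% and 15.4% of all rows.

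Of 36 basal-like genes, 6 were higher and 5 lower (16.7% and 13.9%), close to the shares over all rows. Their median difference was -0.48, with 12 differences positive and 24 negative. UCA1, a noncoding RNA named after urothelial cancer, was at 1489 and 1488 FPKM in HPAF-II, against at most 468 FPKM. SERPINB4, a serpin of squamous epithelium with a near-identical neighbour that can share its reads, was at 21.6 and 30.9 FPKM in HPAF-II, against at most 3.07 FPKM. Among the 19 keratins above 0 FPKM, 0 were higher and 2 lower (0% and 10.53%), the lower being KRT16 and KRT10. Of 17 S100 genes, 1 was higher and 3 lower (5.88% and 17.65%), against 16.0% and 15.4% of all rows. S100A2 was at 3.83 and 2.87 FPKM in HPAF-II, against 7.45 to 1029 FPKM. S100A9, a calcium-binding protein of inflamed epithelium, was at 0 and 0 FPKM in HPAF-II and 4.21 to 328 FPKM in the others.

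Junction genes separated HPAF-II by smaller gaps. Of 34 junction and epithelial splicing genes, 13 were higher and 1 lower (38.2% and 2.94%), 3 of them higher by a gap of at least 1. In Panc.05.04, 22 of the same genes were lower than in all other lines. EPCAM, a defining epithelial adhesion molecule, was at 953 and 990.1 FPKM in HPAF-II, against 32.0, 118 and 542 FPKM as the lowest, median and highest. OVOL1, a zinc finger repressor of the mesenchymal state, was at 36.6 and 39.5 FPKM in HPAF-II, against 0.0204, 6.89 and 7.98 FPKM. ST14, the membrane protease matriptase, was at 492 and 466 FPKM in HPAF-II, against at most 204 FPKM. OVOL2, a relative of OVOL1, was the lower one, at 0.268 and 0.145 FPKM in HPAF-II, against at least 1.43 FPKM. CDH1, E-cadherin, was at 104 and 96.6 FPKM in HPAF-II, inside the range of the others (1.40 to 112 FPKM).

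**Figure D3:**
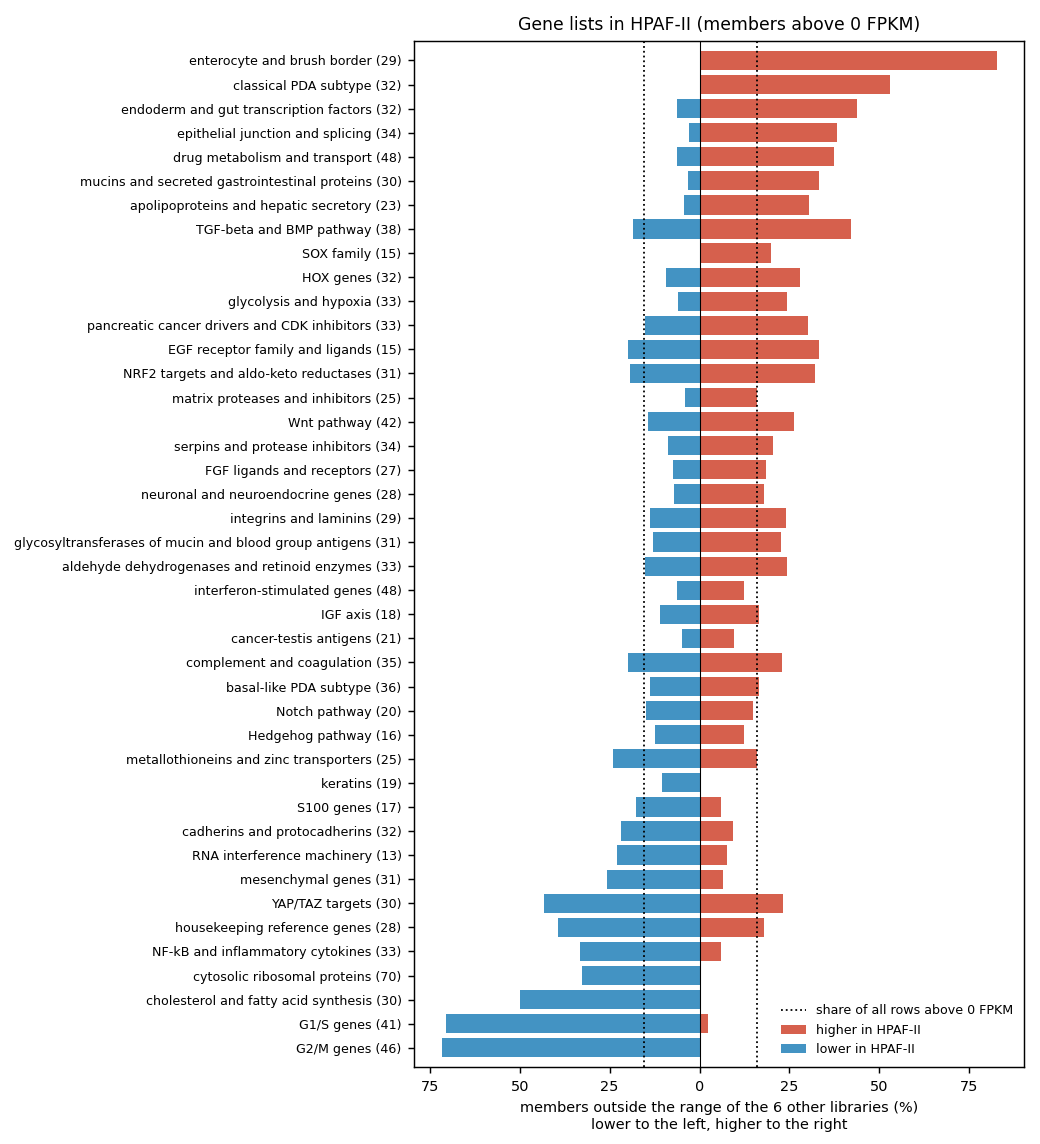
Percentage of the members of each gene list (the MHC lists left out) that were higher (right, red) or lower (left, blue) in both HPAF-II libraries than in all 6 others, over the members above 0 FPKM (their number in brackets), with the shares of all rows as dotted lines at 16.0% and 15.4%. The enterocyte list had 24 of 29 members higher, and the G2/M list 33 of 46 lower.

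In the TGF-beta and BMP list, 16 of 38 genes were higher and 7 lower in HPAF-II (42.1% and 18.4%), with a median difference of 0.19, and 15 met neither side. The ligand BMP4 was at 354 and 312 FPKM in HPAF-II, against 2.56, 3.97 and 6.42 FPKM as the lowest, median and highest elsewhere. The ligand BMP2 was at 99.2 and 75.8 FPKM in HPAF-II, against at most 10.5 FPKM. ID2, a gene that BMP signalling is known to induce, was at 134 and 166 FPKM in HPAF-II, against at most 14.8 FPKM. ID3, its relative, was at 111 and 146 FPKM in HPAF-II, against at most 12.8 FPKM, and the decoy receptor BAMBI at 31.9 and 38.7 FPKM, against at most 2.78 FPKM. SMAD1, which carries the BMP signal, was on the lower side, at 0.203 and 0.127 FPKM in HPAF-II, against 5.32 to 13.9 FPKM in the others.

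On the TGF-beta side, the receptor gene TGFBR2 was at 165 and 167 FPKM in HPAF-II, against 5.61, 42.9 and 53.6 FPKM as the lowest, median and highest elsewhere. SMAD4, the shared SMAD partner that PDA often loses, was at 9.37 and 9.47 FPKM in HPAF-II and at 9.001 and 7.54 FPKM in Panc.10.05. SMAD4 was at 0.00717 and 0.0129 FPKM in Panc.8 and 0 and 0.0123 FPKM in Panc.05.04, so its place on the higher side rests on a gap of 0.05 to Panc.10.05.

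Of 42 Wnt pathway genes, 11 were higher and 6 lower (26.2% and 14.3%), against 16.0% and 15.4% of all rows. In Panc.8, 14 of the same genes were higher than in its 3 other lines. The higher genes in HPAF-II included feedback inhibitors that the pathway is known to induce. The secreted lipase NOTUM was at 17.5 and 21.3 FPKM in HPAF-II, against 0.0409, 0.414 and 2.56 FPKM as the lowest, median and highest. RNF43, the ligase that removes Wnt receptors, was at 26.8 and 26.7 FPKM in HPAF-II, against at most 6.40 FPKM, and AXIN2 at 3.996 and 4.39 FPKM, against at most 0.490 FPKM. The receptor FZD4 was at 21.4 and 28.8 FPKM in HPAF-II, against at most 5.12 FPKM. LEF1, a nuclear partner of beta-catenin, was lower, at 0.0498 and 0.0736 FPKM in HPAF-II, against at least 0.253 FPKM.

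Growth factor ligands differed among themselves. Of 15 genes of the EGF receptor family and its ligands, 5 were higher and 3 lower (33.3% and 20.0%). EREG (epiregulin) was at 134 and 159 FPKM in HPAF-II, against a median of 0.134 and a highest of 17.4 FPKM, and AREG (amphiregulin) at 249 and 264 FPKM, against at most 137 FPKM. HBEGF, a ligand of the same receptor, was lower, at 3.98 and 3.40 FPKM in HPAF-II and 7.71 to 42.6 FPKM in the others. Of 27 FGF genes, 5 were higher and 2 lower (18.5% and 7.41%). Over all rows the shares were 16.0% and 15.4%, so the share of higher FGF genes was close to that of all rows. FGF19, the gut hormone that restrains bile acid synthesis, was at 16.0 and 33.3 FPKM in HPAF-II, against at most 4.50 FPKM, and FGF3 at 1.30 and 2.13 FPKM and listed at 0 in all 6 others. NTS, the gut peptide neurotensin, was at 34.9 and 43.5 FPKM in HPAF-II, against at most 0.438 FPKM.

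In the list of PDA drivers and cyclin-dependent kinase inhibitors, 10 of 33 genes were higher and 5 lower (30.3% and 15.2%). CDKN2A, the tumour suppressor locus of p16, was at 638 and 610 FPKM in HPAF-II. CDKN2A was at 186 and 219 FPKM in Panc.10.05, 62.2 and 84.6 FPKM in Panc.05.04 and 0.598 and 0.669 FPKM in Panc.8.

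Of its neighbours on chromosome 9, CDKN2B and MTAP had the same order of lines. CDKN2B, a related inhibitor, was at 81.9 and 68.0 FPKM in HPAF-II, against at most 16.2 FPKM elsewhere, and MTAP, an enzyme of methionine salvage, at 61.8 and 66.1 FPKM, against at most 26.8 FPKM. In Panc.8 CDKN2B was at 0.0791 and 0.0495 FPKM and MTAP at 0.153 FPKM or less. KLHL9 did not share that order, at 13.7 and 11.5 FPKM in HPAF-II, 14.9 and 9.99 FPKM in Panc.10.05, 11.5 and 11.9 FPKM in Panc.05.04 and 0.0400 and 0.0162 FPKM in Panc.8. DMRTA1 was at 5.10 and 5.14 FPKM in HPAF-II, against 3.06 and 4.33 FPKM in Panc.10.05 and 3.44 and 3.09 FPKM in Panc.05.04, which overlapped each other, and was listed at 0 in Panc.8. SMARCA2, a chromatin remodelling ATPase, was on the lower side, at 2.15 and 1.40 FPKM in HPAF-II and 7.51 to 14.1 FPKM in the others.

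Of 48 genes for drug metabolism and transport, 18 were higher and 3 lower (37.5% and 6.25%). Panc.8 had 13 of them higher and 2 lower than its 3 other lines. CYP2B6, a cytochrome that acts on several drugs, was at 79.8 and 69.8 FPKM in HPAF-II, against a median of 0 and a highest of 0.105 FPKM. CYP24A1, which inactivates vitamin D, was at 581 and 626 FPKM in HPAF-II, against 0.684, 1.79 and 111 FPKM as the lowest, median and highest. The efflux pump ABCC4 was lower, at 0.231 and 0.109 FPKM in HPAF-II and 3.74 to 41.4 FPKM elsewhere. Of 33 aldehyde dehydrogenases and retinoid enzymes, 8 were higher and 5 lower (24.2% and 15.2%), the lower share being close to that of all rows. ALDH2, the mitochondrial enzyme that clears acetaldehyde, was at 117 and 131 FPKM in HPAF-II, against 3.93 to 11.8 FPKM.

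Several cell surface and secreted proteins outside those families had wide gaps. CD55, which shields cells from complement, was at 1328 and 1679 FPKM in HPAF-II, against 23.1, 34.6 and 52.1 FPKM as the lowest, median and highest elsewhere. In the complement and coagulation list 8 of 35 genes were higher and 7 lower (22.9% and 20.0%), near the 16.0% and 15.4% of all rows. HHLA2, a B7-family ligand that acts on T cells, was at 53.5 and 45.1 FPKM in HPAF-II, against at most 0.0603 FPKM. MMP7 (matrilysin), an epithelial metalloprotease, was at 1666 and 1652 FPKM in HPAF-II, against 0, 8.01 and 73.4 FPKM. SLC16A4, of the monocarboxylate transporter family, was at 73.7 and 66.3 FPKM in HPAF-II, against at most 0.262 FPKM.

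On the lower side, MT1E had the widest gap, 5.42. MT1E, a metallothionein that binds zinc and copper, was at 0.231 and 0.684 FPKM in HPAF-II, against 71.3, 135 and 1163 FPKM as the lowest, median and highest elsewhere. MT2A, another metallothionein, was at 31.8 and 27.2 FPKM in HPAF-II, against 306, 811 and 6499 FPKM. SLC39A8, a zinc importer, was at 0.330 and 0.590 FPKM in HPAF-II, against 9.35 to 124 FPKM. Over the list, 6 of 25 metallothioneins and zinc transporters were lower and 4 higher (24.0% and 16.0%). These shares were near those of protein-coding genes with a mean of at least 1 FPKM (21.4% and 19.5%). All rows gave 15.4% lower and 16.0% higher. MT1X, at 35.1 and 18.4 FPKM in HPAF-II, lay inside the range of the others (4.76 to 148 FPKM). Metallothionein genes resemble each other closely, so their reads can be shared between rows.

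The widest gaps on the lower side included 3 genes for actin-binding proteins and a gene of caveolae, chosen by gap and not from a list. CALD1 (caldesmon), a regulator of actin and myosin, was at 0.0407 and 0 FPKM in HPAF-II, against 30.5, 40.1 and 45.9 FPKM as the lowest, median and highest elsewhere. MSN (moesin), which links actin to the membrane, was at 0.747 and 0.512 FPKM in HPAF-II, against 24.5 to 184 FPKM. CNN3, a calponin, was at 4.17 and 3.68 FPKM in HPAF-II, against 75.2 to 163 FPKM. PTRF, a coat protein of caveolae, was at 1.33 and 1.21 FPKM in HPAF-II, against 30.8 to 125 FPKM. Each of the 3 other lines was above HPAF-II for these genes.

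Of 31 mesenchymal genes above 0 FPKM, 8 were lower and 2 higher (25.8% and 6.45%) in HPAF-II. The shares over all rows were 15.4% lower and 16.0% higher. AXL, a receptor tyrosine kinase of migrating cells, was at 4.004 and 3.94 FPKM in HPAF-II, against 30.1, 105 and 210 FPKM as the lowest, median and highest. VIM (vimentin) was at 0.330 and 0.319 FPKM in HPAF-II, against 0.393 and 0.736 FPKM in Panc.10.05, 2.31 and 3.48 FPKM in Panc.8 and 768 and 1080 FPKM in Panc.05.04. The gap for vimentin was 0.07, so it hardly parted HPAF-II from Panc.10.05.

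Of 30 genes named as targets or partners of the co-activators YAP and TAZ, 13 were lower and 7 higher (43.3% and 23.3%) in HPAF-II. ANKRD1, a target, was at 0.0690 and 0.0317 FPKM in HPAF-II, against 8.68, 15.3 and 58.8 FPKM as the lowest, median and highest. CYR61, a matrix signalling protein, was at 3.64 and 4.02 FPKM in HPAF-II, against 43.4, 149.8 and 519 FPKM. CTGF, a companion target, was at 4.02 and 4.17 FPKM in HPAF-II, inside the range of the others (1.45 to 234 FPKM). The co-activator genes themselves were on the higher side, YAP1 at 159 and 154 FPKM in HPAF-II, against 50.5 to 94.2 FPKM, and WWTR1 (TAZ) at 38.9 and 38.1 FPKM, against 20.8 to 32.4 FPKM.

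Lipid synthesis genes that met the rule were all on the lower side. Of 30 cholesterol and fatty acid genes, 15 were lower and 0 higher (50% and 0%), and the median difference was -1.06. FADS1, the delta-5 desaturase of polyunsaturated fatty acids, was at 0.129 and 0.152 FPKM in HPAF-II, against 30.4, 37.8 and 69.6 FPKM as the lowest, median and highest elsewhere. Its neighbour FADS2, the delta-6 desaturase, was at 0.0575 and 0.0571 FPKM in HPAF-II, against 3.30 to 12.2 FPKM. SCD, the stearoyl-CoA desaturase, was at 68.8 and 114 FPKM in HPAF-II, against 334 to 774 FPKM. In Panc.10.05, 19 of the same genes were higher than in all other lines. Outside that list, SCD5, another desaturase, was at 0.317 and 0.320 FPKM in HPAF-II, against 8.52 to 30.4 FPKM, and ACSL1, a fatty acid activating enzyme, at 0.263 and 0.365 FPKM, against 8.87 to 29.7 FPKM. PYGL, the glycogen phosphorylase of liver, was at 0.0316 and 0.0231 FPKM in HPAF-II, against 29.6 to 69.9 FPKM.

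The other genes with the widest gaps on the lower side were of several kinds. ANTXR1, an anthrax toxin receptor that binds collagen, was at 0.00800 and 0.0223 FPKM in HPAF-II, against 11.0 to 39.1 FPKM. LPCAT2, which remodels phospholipids, was at 0.0101 and 0 FPKM in HPAF-II, against 7.69 to 17.9 FPKM. In both, HPAF-II was near 0 and no other library was. NDST1, an enzyme of heparan sulfate, was at 1.53 and 1.67 FPKM in HPAF-II, against 15.8 to 27.3 FPKM. RPL39L, a ribosomal protein gene with close copies that can share its reads, was at 0 and 0 FPKM in HPAF-II, against 15.0 to 38.3 FPKM. The gaps of C1QTNF6, FAM129A, HYI and RIMKLB were 3.82, 3.22, 3.22 and 2.91, and on the higher side PKDCC, a secreted kinase, had a gap of 4.75.

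Inflammatory genes were more often lower than higher. Of 33 NF-kB and cytokine genes, 11 were lower and 2 higher (33.3% and 6.06%), against 15.4% and 16.0% of all rows. The cytokine IL1A was at 1.21 and 0.636 FPKM in HPAF-II, against 13.8, 36.7 and 80.2 FPKM as the lowest, median and highest. SAA1, an acute-phase protein, was at 4.41 and 2.52 FPKM in HPAF-II, against 14.1 to 390.1 FPKM. C15orf48, a small mitochondrial protein, was at 13.0 and 7.28 FPKM in HPAF-II, against 90.1 to 1002 FPKM. IL18, a cytokine of epithelia, was on the higher side, at 152 and 202 FPKM in HPAF-II, against at most 51.4 FPKM.

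The HOX genes, which record position along the body axis, gave 9 higher and 3 lower of 32 (28.1% and 9.38%). Over all rows 16.0% were higher and 15.4% lower. HOXB7 was at 0.889 and 0.265 FPKM in HPAF-II, against 21.7, 31.5 and 69.8 FPKM as the lowest, median and highest, and HOXB3 at 0.450 and 0.218 FPKM, against 2.60 to 6.57 FPKM. HOXC10 was at 12.6 and 11.5 FPKM in HPAF-II, against at most 3.09 FPKM, and HOXC11 at 5.71 and 6.56 FPKM, against at most 1.78 FPKM. Within the HOXB cluster the direction was not shared, since HOXB6 was at 30.6 and 32.3 FPKM in HPAF-II, against at most 21.0 FPKM.

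Cell cycle genes were lower by smaller steps. Of 41 G1/S genes, 29 were lower and 1 higher (70.7% and 2.44%), with a median difference of -1.14. Of 46 G2/M genes, 33 were lower and 0 higher (71.7% and 0%), with a median difference of -1.07. Over all rows 15.4% were lower and 16.0% higher, and over protein-coding genes with a mean of at least 1 FPKM, 21.4% and 19.5%. RRM1, a subunit of ribonucleotide reductase, was at 13.8 and 15.1 FPKM in HPAF-II, against 44.9, 61.8 and 101 FPKM as the lowest, median and highest elsewhere. MCM2, of the replicative helicase, was at 15.6 and 16.3 FPKM in HPAF-II, against 41.8 to 80.8 FPKM. FOXM1, a transcription factor of mitotic genes, was at 10.1 and 12.8 FPKM in HPAF-II, against 40.0 to 104 FPKM. A gap of at least 1 was reached by 6 of the lower G1/S genes and 3 of the lower G2/M genes.

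Of 70 cytosolic ribosomal protein genes, 23 were lower and 0 higher (32.9% and 0%), with a median difference of -0.36. Of 28 housekeeping genes, 11 were lower and 5 higher (39.3% and 17.9%), with a median difference of -0.38. The shares were 15.4% and 16.0% over all rows, and 21.4% and 19.5% over protein-coding genes with a mean of at least 1 FPKM. GAPDH, a glycolytic enzyme, was at 1180 and 1291 FPKM in HPAF-II, against 2129 to 3604 FPKM. Over rows with a mean of at least 1 FPKM, the median difference of HPAF-II was -0.04 as deposited and 0.00 after median-ratio scaling of the 8 libraries. Whether a difference of scale between the lines contributed to these list medians was not tested.

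The remaining lists are given by their counts of higher and lower members in HPAF-II, beside the 16.0% and 15.4% of all rows. They gave 10 and 6 of 31 for NRF2 targets and aldo-keto reductases, 8 and 2 of 33 for glycolysis and hypoxia, and 7 and 1 of 23 for apolipoproteins and hepatic secretory proteins. They gave 7 and 4 of 29 for integrins and laminins, 4 and 1 of 25 for matrix proteases and their inhibitors, and 7 and 3 of 34 for serpins and other protease inhibitors. Interferon-stimulated genes gave 6 and 3 of 48, Notch genes 3 and 3 of 20, Hedgehog genes 2 and 2 of 16 and the IGF axis 3 and 2 of 18. Cadherins and protocadherins gave 3 and 7 of 32, SOX genes 3 and 0 of 15, and neuronal and neuroendocrine genes 5 and 2 of 28. Cancer-testis antigens gave 2 and 1 of 21, and the RNA interference machinery 1 and 3 of 13. Only 6 of 18 MHC class I list genes and 5 of 14 class II list genes were matched, with 0 higher and 0 lower. Within the hypoxia list, CA12, a carbonic anhydrase, was at 61.9 and 63.2 FPKM in HPAF-II, against at most 6.30 FPKM, and EGLN3, a prolyl hydroxylase, at 169.7 and 150 FPKM, against at most 25.2 FPKM.

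The share of higher and lower genes also varied by chromosome. Over 11116 protein-coding genes with a mean of at least 1 FPKM, 19.5% were higher and 21.4% lower in HPAF-II. On chromosome 11, 36.3% of 667 genes were higher and 14.1% lower, and on chromosome 20, 31.1% of 306 were higher and 10.1% lower. On chromosome 13, 10.1% of 199 genes were higher and 39.2% lower, and on chromosome 9, 10.3% of 467 were higher and 37.7% lower. The median difference was 0.26 on chromosome 11, 0.28 on chromosome 20, -0.33 on chromosome 9, -0.35 on chromosome 10 and -0.61 on chromosome 13. The other lines had medians of similar size, such as -0.65 for chromosome 7 in Panc.05.04 and 0.59 for chromosome 15 in Panc.8. Copy number was not measured here.

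**Figure D4:**
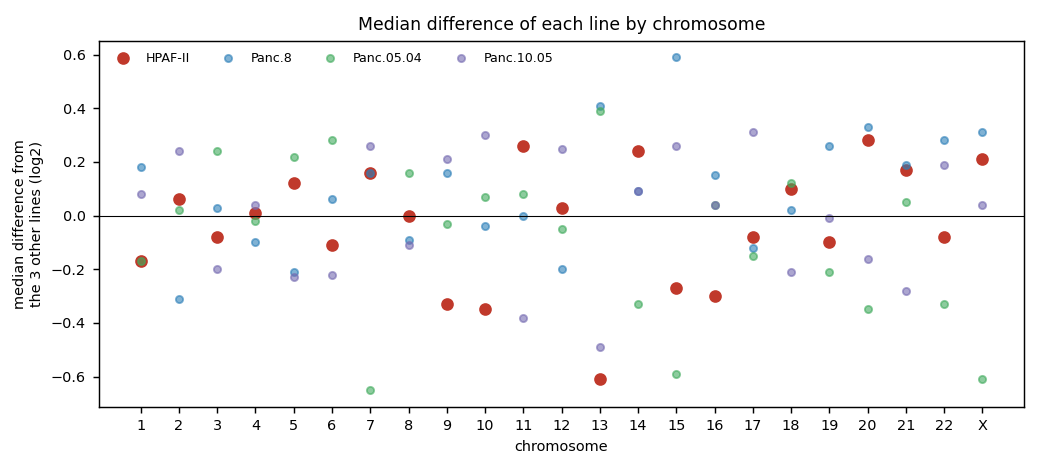
Median over protein-coding genes of the difference between a line and the mean of the 3 other lines on log2(FPKM + 1), by chromosome, with HPAF-II as large red points. HPAF-II was lowest on chromosome 13 (-0.61) and highest on chromosome 20 (0.28).

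Runs were counted along the same 11116 protein-coding genes with a mean of at least 1 FPKM, in genome order. Neighbours are next to each other in that set, and rows outside it that lie between them could not break a run. The longest run of lower genes held 15 neighbours on chr13:106543314-113265078 (hg38), from ARGLU1 to PCID2, with gaps from 0.06 to 2.24. The widest was that of CARS2, the mitochondrial cysteine tRNA synthetase, at 4.23 and 4.04 FPKM in HPAF-II, against 23.7 to 42.8 FPKM. IRS2, an adaptor of the insulin receptor, lay in the run at 4.21 and 3.85 FPKM in HPAF-II, against 6.15 to 20.8 FPKM. Other runs of lower genes held 8 genes on chr9:128340560-128724129 and 6 on chr1:89633085-91906002. CDX2 and PDX1, also on chromosome 13, were among the higher genes.

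On the higher side, 12 neighbours formed a run on chr11:96389994-102843611, from JRKL to MMP1, with gaps from 0.70 to 4.47. It held YAP1, the inhibitor of apoptosis genes BIRC2 and BIRC3, and the metalloproteases MMP7, MMP10 and MMP1. BIRC2 was at 54.9 and 55.2 FPKM in HPAF-II, against 16.9, 24.5 and 27.8 FPKM as the lowest, median and highest, and BIRC3 at 68.4 and 66.9 FPKM, against 5.26 to 39.2 FPKM. ARHGAP42, a GTPase activating protein, was at 27.4 and 27.1 FPKM in HPAF-II, against at most 5.38 FPKM. Another run of 12 lay at chr11:65314818-65650920, with gaps from 0.10 to 1.44. A run of 13 on chr7:101154405-102478934, with gaps from 0.01 to 3.42, included MOGAT3, an enzyme of fat synthesis in the gut, at 12.2 and 12.7 FPKM in HPAF-II, against at most 0.234 FPKM.

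Runs of at least 5 numbered 26 higher and 16 lower in HPAF-II, 17 and 16 in Panc.8, 29 and 38 in Panc.05.04 and 22 and 9 in Panc.10.05. The longest higher run was 13 genes in HPAF-II, 9 in Panc.8, 26 in Panc.05.04 and 15 in Panc.10.05. The longest lower run was 15 genes in HPAF-II, 7 in Panc.8, 10 in Panc.05.04 and 11 in Panc.10.05. Rows that overlap can share reads and are not separate evidence.

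**Figure D5:**
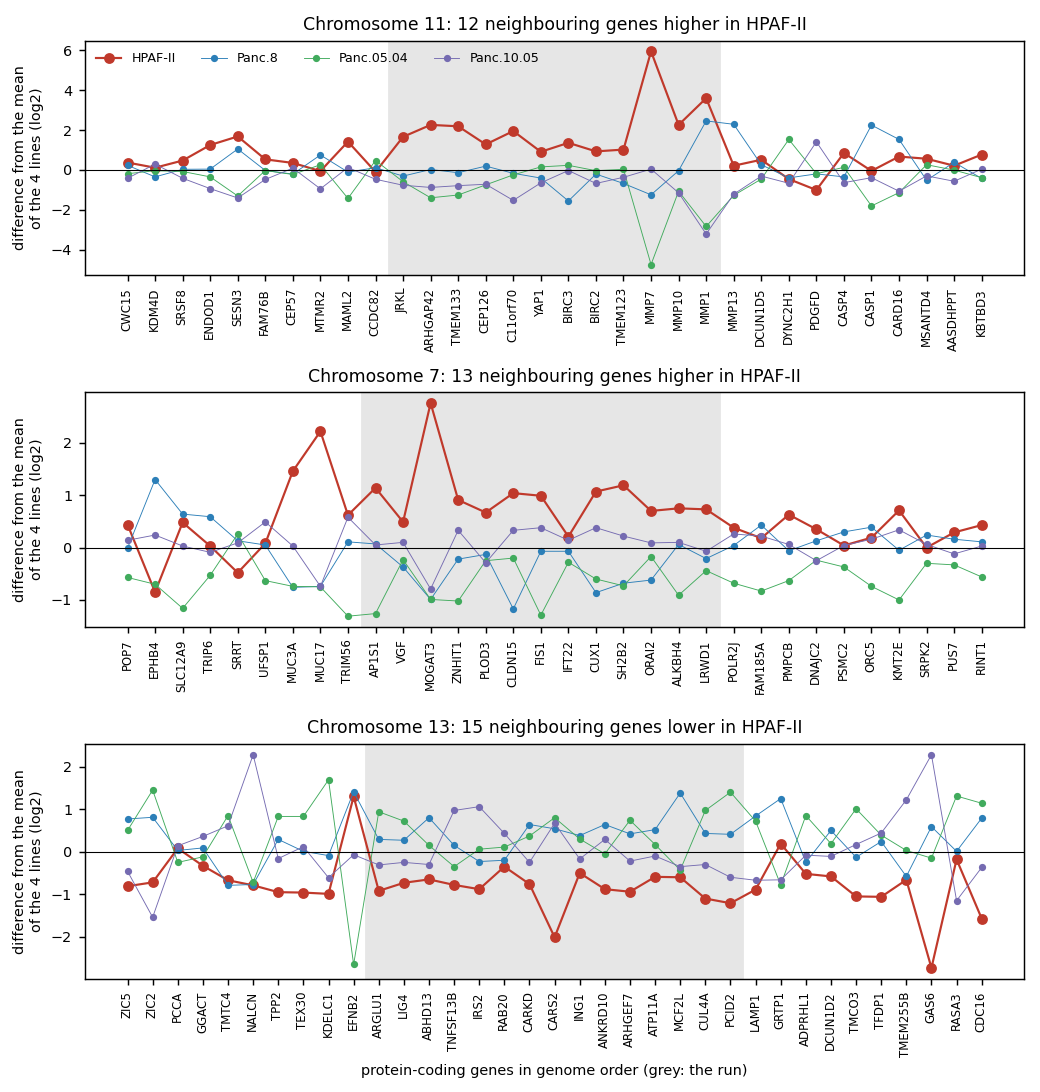
Difference of each line from the mean of the 4 lines on log2(FPKM + 1) along protein-coding genes in genome order, for runs of 12 genes on chromosome 11, 13 on chromosome 7 and 15 on chromosome 13 (grey), with up to 10 neighbours drawn on each side (1 neighbour outside the grey runs is not drawn). In the grey runs HPAF-II (red) lies above the other lines on chromosomes 11 and 7 and below them on chromosome 13.

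The values of the 2 HPAF-II libraries were close beside these line differences. Among the 603 higher genes, the log2 ratio of PDX1 siRNA over control siRNA in HPAF-II, on FPKM + 1, had a median of -0.02, with 5th and 95th percentiles of -0.32 and 0.28. Among the 260 lower genes the median was 0.00 and the percentiles were -0.31 and 0.27. Over the 12106 rows with a mean of at least 1 FPKM the percentiles were -0.26 and 0.29. FGF19, with -1.02, was the 1 gene of both sets whose ratio reached a size of 1. SPINK1, a trypsin inhibitor, had a ratio of 0.82 and was at 32.0 and 17.7 FPKM in HPAF-II, against at most 0.246 FPKM in the other lines. PRAP1, a secreted gut protein, had -0.76 and was at 5.79 and 10.5 FPKM in HPAF-II. None of these ratios has a replicate.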

How the data were processed

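RNA from 8 cultures (4 PDA lines, each with PDX1 siRNA or control siRNA) was sequenced. Per the submitters' processing notes, the tools were TopHat2 (version 2), Cufflinks and Cuffdiff with hg38. The deposited values are FPKM per gene row, computed by the authors with Cuffdiff per the file headers, in 1 table per line of 28520 rows, and the sources used here do not say if the 4 runs shared a scale. The authors' p-values and fold changes were not used. The 23 rows marked HIDATA or FAIL in a table were left out. Cuffdiff gives no counts here, so depth is unknown.

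Values were compared on log2(FPKM + 1), with a pseudocount of 1, in Python 3.11.15 with numpy 2.4.6 and pandas 2.3.3, and drawn with matplotlib 3.10.9. The rule was checked on simulated data. HPAF-II is 1 line, so no test was made. Gene types and promoters came from RefSeq, with 93.7% of rows matched to a gene type.

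The members and the 44 gene lists were chosen with earlier results of these data known. The named genes were PDX1, the 25 protein-coding genes with the widest gap in each direction and up to 4 members of each list with the widest gaps. Other genes were named after their values were seen: members of neighbouring runs, genes at the edge of the gap of 1, members that met neither side of the rule, markers, CDKN2A, MTAP, KLHL9, DMRTA1, SMARCA2, YAP1, WWTR1, VIM, MUC1, EPCAM, SMAD1, SMAD4, BMP2, LEF1, NR5A2, ISX, HHEX, GATA4, HOXB6, CEACAM5, CEACAM6, ABCC4, SI, SLC2A2, CD46, CD59, SERPINA1 and PRAP1. Results for a few genes are not reported here. Genes most like PDX1 across libraries are not reported, because the 8 libraries come from 4 lines. The alternatives were other scalings, another pseudocount, filters on rows, a single siRNA and leaving out each library or line.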

Additional observations from a re-analysis of the deposited data

Results flagged for a closer look

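FGF19, the gut hormone of bile acid control, had a log2 ratio of PDX1 siRNA over control siRNA of -1.02 in HPAF-II on FPKM + 1, with 16.0 FPKM with PDX1 siRNA and 33.3 FPKM with control siRNA. In the other 3 lines the ratio had the opposite sign, at 0.09 in Panc.8, 0.16 in Panc.05.04 and 1.62 in Panc.10.05, from 1 library per siRNA each. FGF19 was at 0.657 FPKM with PDX1 siRNA and 0.559 FPKM with control siRNA in Panc.8, 0.117 and 0 FPKM in Panc.05.04, and 4.50 and 0.789 FPKM in Panc.10.05, so the signs in Panc.8 and Panc.05.04 rest on values under 1 FPKM. The difference between lines was not tested, since each line has 1 library per siRNA. Of 184 genes and list members looked at, 13 had a ratio of at least 0.5 in size in HPAF-II, and this was the 1 with the opposite sign in all 3 other lines.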

How the results depend on the processing

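With both HPAF-II libraries against the other 6, 3088 rows were higher and 2986 lower, and 603 and 260 with a gap of at least 1. The lower count with the gap was 394 with libraries rescaled to a sum of 1000000, 536 with a pseudocount of 0.1 (853 higher), 472 with control siRNA libraries only and 400 with PDX1 siRNA libraries only. The higher count without a gap was 4647 with control siRNA libraries only; a range over fewer libraries is easier to fall outside. Leaving out 1 library or 1 of the other lines gave 3182 to 4331 higher and 3122 to 4350 lower rows, and 611 to 972 higher and 273 to 583 lower rows with the gap. With the gap, the higher count was 908 without Panc.8 and 972 without Panc.10.05, and the lower count was 480 without Panc.8, 459 without Panc.05.04 and 583 without Panc.10.05. The 184 genes named by the rules were chosen for meeting the rule, and leaving out libraries or changing the pseudocount cannot undo that. The rescalings can, and 183 of 184 met the rule with libraries rescaled to 1000000 and 184 after median-ratio scaling. No list median of at least 0.1 in size changed sign. Among values of named genes 2109 moved by less than the spread of the other lines and 283 by more, and among list medians 553 and 19. No paired analysis was possible because the result comes from no test. Depth is unknown, so values near 0 FPKM cannot be given a limit of detection.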

Other observations

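CD55 stood apart from the other membrane regulators of complement in HPAF-II. CD46, a cofactor that inactivates complement, was at 174 and 189 FPKM in HPAF-II (PDX1 siRNA and control siRNA), inside the 94.1 to 271 FPKM of the other lines. CD59, which blocks the terminal complement pore, was at 33.2 and 29.9 FPKM in HPAF-II, against 34.3 to 254 FPKM. These genes were chosen after their values were seen, and no test was made.

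SERPINA1, the protease inhibitor antitrypsin of liver and gut epithelium, was left out of the counts and of the hepatocyte markers. Its row was marked FAIL in the HPAF-II table. Its deposited values were 11.3 and 13.3 FPKM in HPAF-II, against 0.0114 to 6.24 FPKM in the other lines.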
